A study of Mus musculus with 37 samples.

Results

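Iron and heme handling in the obstructed mouse kidney was followed through 9 genes: the uptake genes Tfrc, Trf and Slc11a2, the ferritin genes Fth1 and Ftl1, the export genes Slc40a1 and Cp, and the heme and hemoglobin genes Hmox1 and Hp. Each gene was found by its symbol in the probe annotation of an Illumina bead array and was represented by its probe with the highest mean signal. Of 20 probes for these symbols, 18 were detected on at least 3 arrays, and all 9 genes were among the 12866 genes tested. Levels are normalised signals on a log2 scale, so a difference of 1 is a doubling, and levels of different probes are not set against each other.

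The 37 arrays came from adult kidneys of 25 mice in 12 groups, and each kidney was from 1 mouse. Unilateral ureteral obstruction (UUO), the tying of 1 ureter, had been done in a Twist1 line and a Snai1 line. Deleted mice were ggt-cre+;Twist flox/flox (mice 4 to 7) or ggt-cre+;Snail flox/flox (mice 11 to 13), and the controls of these lines were ggt-cre-;Twist flox/flox (mice 1 to 3) or ggt-cre-;Snail flox/flox (mice 8 to 10). The ggt promoter drives cre in proximal tubule epithelium, so the labels place the loss in those cells alone, and every deleted mouse differed from its line control in cre as well. Obstructed and contralateral kidneys of these mice were arrayed at 10 weeks of age, with 3 arrays a group, except for 4 obstructed kidneys of Twist1-deleted mice. The contralateral kidney of mouse 5 is not analysed here. Healthy kidneys came from ggt-cre+;Twist flox/flox mice (20 to 22) and ggt-cre+;Snail flox/flox mice (23 to 25) aged 26 weeks, and from ggt-cre+;WT mice (14 to 16) and ggt-cre-;WT mice (17 to 19) aged 10 weeks, with 3 arrays each. Mice of the Snai1 line were on mixed C57Bl/6 and Balb/c stock, and all others on mixed C57Bl/6 and sv129 stock. The time after obstruction is not given in the sources used here.

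Cells take up iron bound to transferrin (Trf), the iron carrier of plasma, through the transferrin receptor (Tfrc), and Slc11a2 (DMT1) moves ferrous iron out of the endosome. Ferritin, built of the heavy chain Fth1 and the light chain Ftl1, stores iron, ferroportin (Slc40a1) is the iron exporter of mammalian cells, and the ferroxidase ceruloplasmin (Cp) oxidises the iron that leaves. Heme oxygenase 1 (Hmox1) breaks down heme, and haptoglobin (Hp) binds free hemoglobin in plasma. In the kidney, proximal tubule cells reabsorb filtered transferrin-bound iron, and macrophages recycle iron from red cells.

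Detected probes numbered 16977 to 20682 an array (37.5% to 45.7% of 45281), raw median signals were 93 to 133.8, and arrays of a group correlated at r = 0.935 to 0.992. Proximal tubule markers (8 of 8 listed) were detected on every array and averaged 8.23 to 11.86 (log2) in obstructed kidneys, against 11.82 to 12.48 in contralateral kidneys. Macrophage markers (8 of 9 listed were measured) averaged 7.85 to 9 in obstructed kidneys, against 5.79 to 6.77 in contralateral kidneys. For hepatocyte markers (6 of 8) the ranges were 5.69 to 8.47 when obstructed, against 7.68 to 8.94 when contralateral. For erythroid markers (5 of 8) they were 7.98 to 10.58 when obstructed, against 9.68 to 10.99 when contralateral, and for neutrophil markers (4 of 7) 5.47 to 8.03 when obstructed, against 4.77 to 6.93 when contralateral. Twist1 had levels near background, 4.55 to 5.05 in obstructed kidneys of Twist1-deleted mice and 4.69 to 5.41 in those of Twist1-line controls, and Snai1 had 4.80 to 5.61 in obstructed kidneys of Snai1-deleted mice and 5.30 to 5.99 in those of Snai1-line controls. The ranges overlap for both genes, and in whole kidney RNA the deletion in proximal tubule cells could not be checked at this signal.

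With obstruction Cp, Slc40a1 and Trf rose and Tfrc fell in all 4 genotype groups. In obstructed against contralateral kidneys, 6 of 9 genes passed an adjusted p of 0.05 in Twist1-deleted mice (4 higher, 2 lower), 5 in Twist1-line controls (3 higher, 2 lower), 4 in Snai1-deleted mice (3 higher, 1 lower) and 6 in Snai1-line controls (4 higher, 2 lower). Over all genes tested, 40.1% passed in Twist1-deleted mice (21.9% higher, 18.2% lower), 47.2% in Twist1-line controls (26.7% higher, 20.5% lower), 15.2% in Snai1-deleted mice (10.5% higher, 4.74% lower) and 36.4% in Snai1-line controls (21.1% higher, 15.3% lower). Groups did not overlap for 6 of 9 genes in Twist1-deleted mice (31.3% of all genes), 6 in Twist1-line controls (50.7%), 6 in Snai1-deleted mice (31.8%) and 7 in Snai1-line controls (50.1%). A count of these genes is thus to be read against a large share of all genes that moved. Shares without overlap are given for obstruction only, and elsewhere a lack of overlap describes levels without such a share. Genes higher in all 4 groups made up 9.42% of those tested (1212 genes) and genes lower in all 4 made up 3.8% (489 genes). The median log2 change of the 9 genes was 0.02 in Twist1-deleted mice, 0.32 in Twist1-line controls, 0.05 in Snai1-deleted mice and 0.3 in Snai1-line controls, and that of all genes tested lay between 0 and 0.05. In whole kidney RNA, fewer cells of a type and less RNA per cell cannot be told apart. Adjusted p-values are from limma with Benjamini-Hochberg adjustment over all genes tested. They rest on 1 estimate of spread per gene, pooled within all 12 groups, and treat both kidneys of a mouse as independent.

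**Figure D1:**
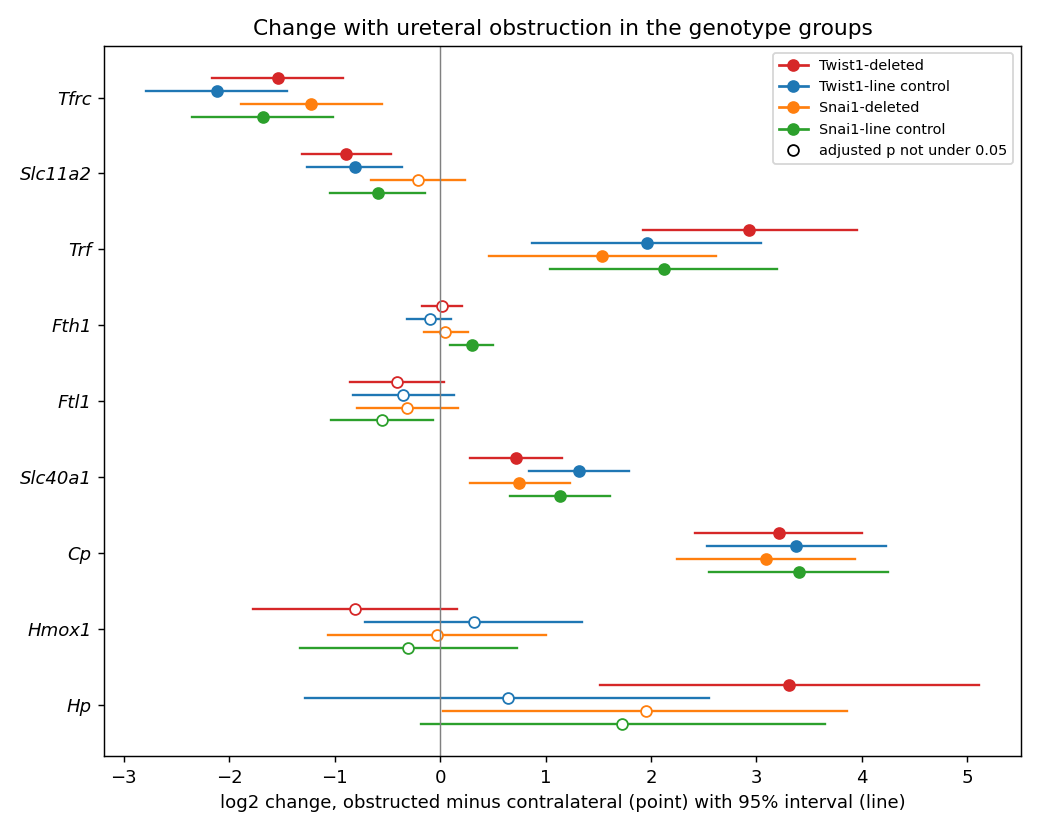
Log2 change, obstructed minus contralateral kidneys, for the 9 genes in 4 genotype groups. Points are estimates from the model, lines are 95% intervals and open points did not pass an adjusted p of 0.05. Tfrc lies between -2.12 and -1.22 and Cp between 3.09 and 3.40, while Hmox1 and Ftl1 have open points in every group.

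The windows around the RefSeq transcription starts are shown for the gene with the largest fall (Tfrc) and the gene with the largest rise (Cp). Sequences are from RefSeq on GRCm38.p6, plus strand for both genes, and run from 250 bases before to 50 bases after a start. Of the 9 symbols, 4 matched (Fth1, Ftl1, Tfrc and Cp, with 7 windows). Capitals mark ACGTG, the core of hypoxia response elements, in Tfrc and TTGCNNAA, a loose form of the C/EBP site of acute-phase genes, in Cp.
Tfrc, chr16:32608872-32609171: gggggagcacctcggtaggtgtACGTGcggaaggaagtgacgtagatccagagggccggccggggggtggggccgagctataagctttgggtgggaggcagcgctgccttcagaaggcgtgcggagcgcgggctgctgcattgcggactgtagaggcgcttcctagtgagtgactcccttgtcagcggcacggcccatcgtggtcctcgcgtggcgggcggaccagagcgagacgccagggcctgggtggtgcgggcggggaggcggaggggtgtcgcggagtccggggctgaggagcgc
Cp, chr3:19956999-19957298: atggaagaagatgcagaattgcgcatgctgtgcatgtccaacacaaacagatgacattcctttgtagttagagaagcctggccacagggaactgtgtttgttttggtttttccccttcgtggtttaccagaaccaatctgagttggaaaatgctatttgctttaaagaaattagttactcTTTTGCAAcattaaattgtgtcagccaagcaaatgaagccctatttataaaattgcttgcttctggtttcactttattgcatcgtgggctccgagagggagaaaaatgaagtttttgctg
Searched on both strands, ACGTG was in 19.6% of 32851 promoter windows of this length, among them both Tfrc windows, which overlap and share the match, and in no window of the other 3 genes. TTGCNNAA was in 10.8% of all windows, with 1 match in the Cp window shown and 2 matches in 1 of the Fth1 windows. TGACNNNGC, the core of the antioxidant response element, was in 12.4% of all windows and in none of the 7. The 3 motifs did not overlap one another in these windows, and a match describes letters only.

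Tfrc, the receptor that brings transferrin-bound iron into cells, was lower in the obstructed kidney of 12 of 12 mice with both kidneys, as were 14.5% of all genes tested. Its levels were 9.27, 8.91, 8.84 and 10.27 in obstructed kidneys of Twist1-deleted mice, against 11.15, 10.71 and 10.73 in contralateral kidneys. In Twist1-line controls they were 8.86, 8.96 and 8.82 in obstructed kidneys, against 10.78, 10.95 and 11.27 in contralateral kidneys. Neither pair of groups overlapped, and obstructed mouse 7 was the highest of the Twist1-deleted mice. Snai1-deleted mice had 9.83, 9.19 and 9.82 in obstructed kidneys, against 10.13, 11.06 and 11.30 in contralateral kidneys. Snai1-line controls had 8.23, 9.10 and 8.26 in obstructed kidneys, against 10.19, 10.55 and 9.89 in contralateral kidneys. Again the obstructed kidneys lay below the contralateral ones, closest in mouse 11 of the Snai1-deleted mice, whose kidneys differed by 0.31.

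Tfrc fell 2.91-fold in Twist1-deleted mice (log2 change -1.54, SE 0.30, adjusted p = 0.000207) and 4.35-fold in Twist1-line controls (-2.12, SE 0.33, adjusted p = 4.84e-06). It fell 2.33-fold in Snai1-deleted mice (-1.22, SE 0.33, adjusted p = 0.0102) and 3.21-fold in Snai1-line controls (-1.68, SE 0.33, adjusted p = 0.000177). The other Tfrc probe had changes of -1.99 to -1.25 in these groups and correlated with the chosen one at r = 0.99 over the 37 arrays. In Snai1-deleted mice the call was lost without the obstructed kidney of mouse 12 (-1.01, adjusted p = 0.0787) or the contralateral kidney of mouse 13 (-0.99, adjusted p = 0.0781), and with only the groups compared in the fit (adjusted p = 0.0669). Proximal tubule and erythroid marker levels, given above, fell with obstruction as well: in Twist1-line controls 8 of 8 proximal tubule markers (median log2 change -2.66) and 5 of 5 erythroid markers (median -1.47) passed the test as lower, and in Snai1-deleted mice 2 of 8 and 2 of 5. Their part in the fall of Tfrc was not tested.

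Slc11a2, the endosomal ferrous iron transporter, was lower in the obstructed kidney of 11 of 12 mice. Obstructed kidneys of Twist1-deleted mice had 8.72, 8.74, 8.99 and 9.23, against 10.15, 9.70 and 9.59 in contralateral kidneys, with no overlap. In Twist1-line controls the levels were 9.07, 8.70 and 9.24 in obstructed kidneys, against 9.69, 9.72 and 10.04 in contralateral kidneys, also apart. It fell 1.85-fold in Twist1-deleted mice (log2 change -0.89, SE 0.21, adjusted p = 0.00105) and 1.75-fold in Twist1-line controls (-0.81, SE 0.22, adjusted p = 0.0032). The fall of 1.5-fold in Snai1-line controls (-0.59, SE 0.22, adjusted p = 0.0373) rested on 8.73, 8.63 and 8.58 in obstructed kidneys, against 9.34, 9.54 and 8.82 in contralateral kidneys, and was no longer called without any 1 of 5 of these 6 kidneys (adjusted p = 0.0573 to 0.182). The exception was the contralateral kidney of mouse 10. It was also not called with only the groups compared (adjusted p = 0.0557) or with no filter on dim probes (adjusted p = 0.0505). Snai1-deleted mice had 9.09, 9.05 and 9.41 in obstructed kidneys, against 9.07, 9.26 and 9.84 in contralateral kidneys, which overlap (-0.21, 95% interval -0.66 to 0.24, adjusted p = 0.585). The 2 other Slc11a2 probes had log2 changes of -1.05 to -0.44 in the 4 groups and correlated with the chosen probe at r = 0.78 to 0.81.

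Trf, the plasma iron carrier made mostly by the liver, was higher in the obstructed kidney of 12 of 12 mice, as were 17.7% of all genes tested. Levels were 9.43, 10.51, 9.77 and 9.34 in obstructed kidneys of Twist1-deleted mice, against 6.71, 6.32 and 7.46 in contralateral kidneys. Twist1-line controls had 9.48, 9.52 and 9.08 in obstructed kidneys, against 7.45, 8.74 and 6.02 in contralateral kidneys. The obstructed kidneys lay above the contralateral ones in both genotypes, and the contralateral kidneys of Twist1-line controls were spread the most. In Snai1-deleted mice the values were 8.55, 8.80 and 8.99 in obstructed kidneys, against 7.18, 8.36 and 6.18 in contralateral kidneys. In Snai1-line controls they were 9.75, 9.50 and 10.09 in obstructed kidneys, against 8.29, 6.65 and 8.04 in contralateral kidneys. No pair of groups overlapped.

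Trf rose 7.63-fold in Twist1-deleted mice (log2 change 2.93, SE 0.49, adjusted p = 3.36e-05), 3.88-fold in Twist1-line controls (1.96, SE 0.53, adjusted p = 0.00307) and 4.34-fold in Snai1-line controls (2.12, SE 0.53, adjusted p = 0.00224). The rise in Snai1-deleted mice was 2.90-fold (1.54, SE 0.53, adjusted p = 0.0474). It was no longer called with mouse as a fixed block (adjusted p = 0.0508), or without any 1 of 5 of its 6 kidneys (adjusted p = 0.0577 to 0.274), the contralateral kidney of mouse 12 being the exception. With only the groups compared its adjusted p was 0.105, and 7 of 16 alternatives kept the call. In Twist1-line controls the rise was 1.26 without the contralateral kidney of mouse 3 (adjusted p = 0.0544). Of 6 hepatocyte markers, 2 passed as lower and 1 as higher in the deleted mice of each line (median -0.56 in Twist1-deleted and 0.12 in Snai1-deleted mice), 1 as lower and 0 as higher in Twist1-line controls (median -0.62), and 2 as lower and 0 as higher in Snai1-line controls (median -0.64).

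**Figure D2:**
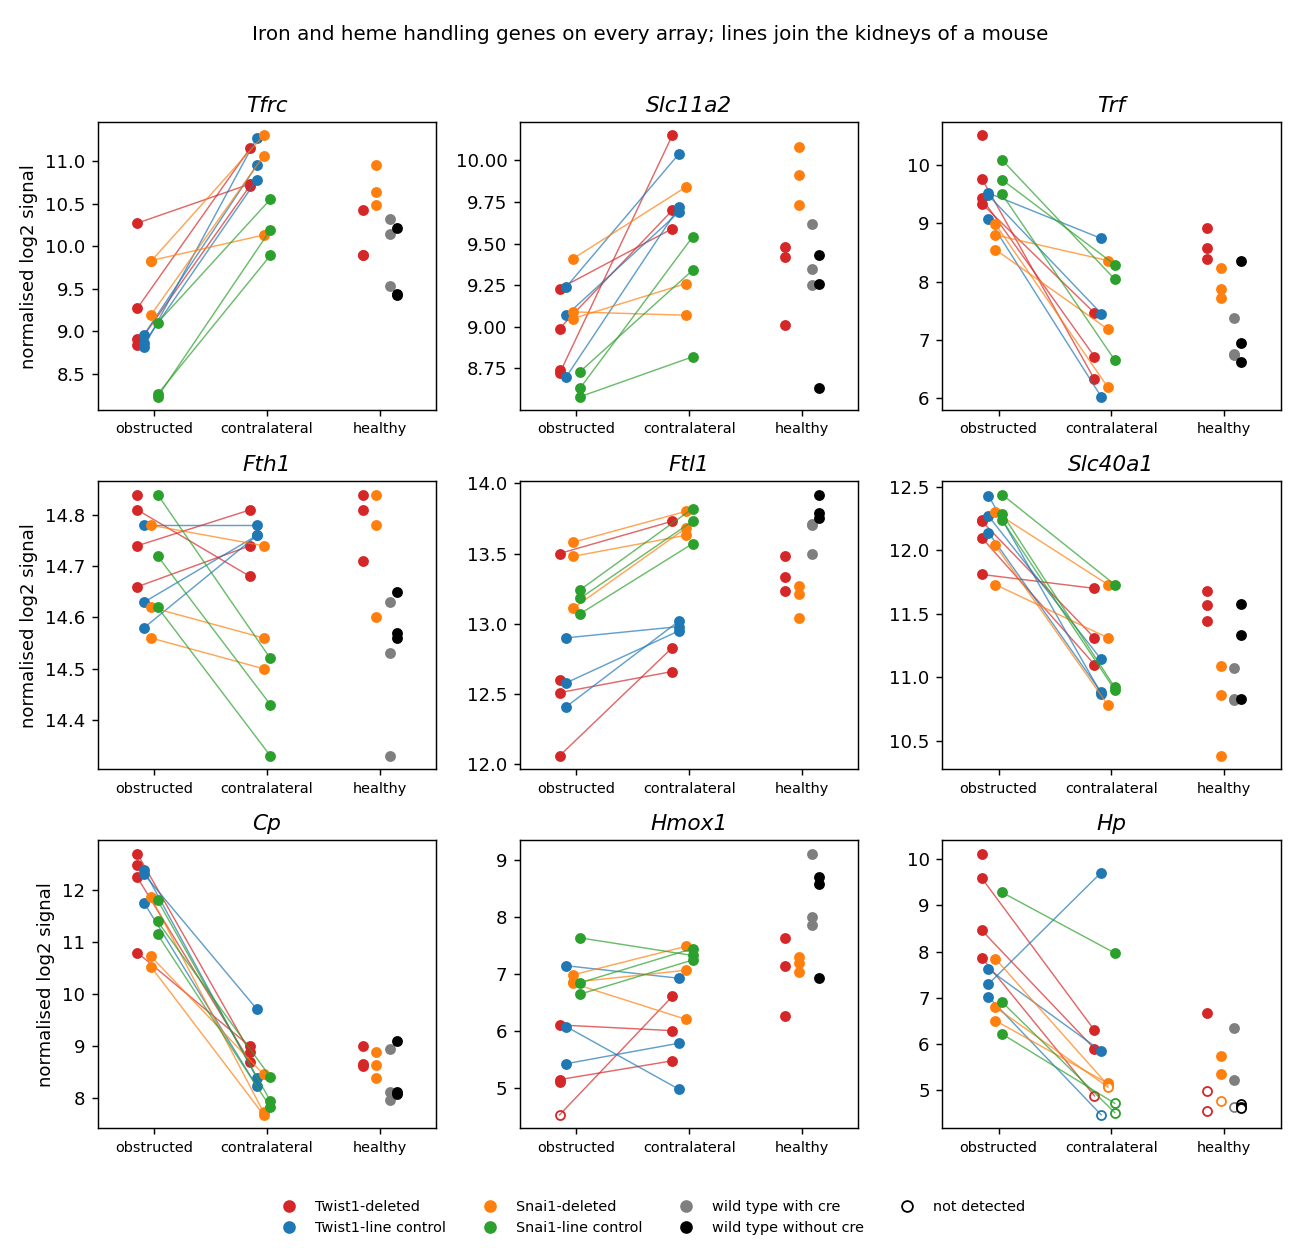
Normalised log2 signal of the 9 genes on all 37 arrays, by kidney type (horizontal axis) and genotype (colour); lines join the obstructed and the contralateral kidney of a mouse and open points were not detected. All 12 lines slope the same way for Tfrc, Trf, Ftl1, Slc40a1 and Cp, and the Hp line of mouse 2 runs against the other 11.

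Of the ferritin genes, Ftl1 was lower in the obstructed kidney of 12 of 12 mice by 0.08 to 0.77 log2 units, but did not pass the test in any group. Obstructed kidneys of Twist1-deleted mice had 12.06, 12.6, 12.51 and 13.50, against 12.83, 12.66 and 13.73 in contralateral kidneys. Mouse 7 was high in both its kidneys. Without the obstructed kidney of mouse 7 the change there was -0.68 (adjusted p = 0.00338), and without the contralateral kidney of mouse 6 it was -0.61 (adjusted p = 0.0472), against -0.41 with all (adjusted p = 0.145). These kidneys had the highest obstructed and the lowest contralateral level, so leaving either out was bound to enlarge the fall. Within mouse 7 the kidneys differed by -0.23. In Twist1-line controls Ftl1 had 12.41, 12.90 and 12.58 in obstructed kidneys, against 13.02, 12.98 and 12.95 in contralateral kidneys (-0.35, adjusted p = 0.229). In Snai1-line controls it had 13.07, 13.24 and 13.18 in obstructed kidneys, against 13.57, 13.82 and 13.73 in contralateral kidneys (-0.55, SE 0.23, adjusted p = 0.0692), and with mouse as a block the same change passed (adjusted p = 0.0229 as a random and 0.0155 as a fixed block), as it did with only the groups compared (adjusted p = 0.0167). Snai1-deleted mice had 13.11, 13.58 and 13.48 in obstructed kidneys, against 13.68, 13.80 and 13.63 in contralateral kidneys (-0.31, adjusted p = 0.405). With the scaling of the authors' deposited series matrix values, the falls were larger and passed in Twist1-deleted mice (-0.94, adjusted p = 0.0127), Twist1-line controls (-1.07, adjusted p = 0.00686) and Snai1-line controls (-1.19, adjusted p = 0.00372). That scaling has a slope for each array, lower in the obstructed than in the contralateral kidneys of these groups, and its part was not tested.

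Fth1, the ferritin heavy chain with ferroxidase activity, stayed within 14.33 to 14.84 on all 37 arrays. Its probe was among the 41 brightest of 45281 on each array, and quantile normalisation gives the brightest probes nearly the same value on every array. In Snai1-line controls it had 14.62, 14.84 and 14.72 in obstructed kidneys, against 14.33, 14.52 and 14.43 in contralateral kidneys, a change of 0.30 (SE 0.10, adjusted p = 0.02). That call was lost without the obstructed kidney of mouse 9 (0.24, adjusted p = 0.0954) or of mouse 10 (adjusted p = 0.0512), without the contralateral kidney of mouse 8 (0.25, adjusted p = 0.0938), with both Fth1 probes averaged (0.20, adjusted p = 0.112), and with only the groups compared (adjusted p = 0.115). The changes were 0.02 in Twist1-deleted mice (adjusted p = 0.886), -0.10 in Twist1-line controls (adjusted p = 0.424) and 0.05 in Snai1-deleted mice (adjusted p = 0.796). The series matrix values, which were not quantile normalised here, gave -0.52 in Twist1-deleted mice (adjusted p = 0.00622) and -0.65 in Twist1-line controls (adjusted p = 0.00123), and -0.13 in Snai1-line controls (adjusted p = 0.555), so the direction for Fth1 depends on the scaling.

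Slc40a1 (ferroportin), the exporter of cellular iron, was higher in the obstructed kidney of 12 of 12 mice. Obstructed kidneys of Twist1-deleted mice had 12.10, 12.24, 12.23 and 11.81, against 11.10, 11.31 and 11.70 in contralateral kidneys. Twist1-line controls had 12.27, 12.14 and 12.43 in obstructed kidneys, against 11.14, 10.88 and 10.87 in contralateral kidneys. Both pairs of groups were apart, by a small margin in Twist1-deleted mice, where the kidneys of mouse 7 differed by 0.11. Snai1-deleted mice had 11.73, 12.30 and 12.04 in obstructed kidneys, against 11.31, 11.73 and 10.78 in contralateral kidneys, the lowest obstructed and the highest contralateral value being equal when rounded. Snai1-line controls had 12.29, 12.24 and 12.44 in obstructed kidneys, against 10.92, 10.90 and 11.73 in contralateral kidneys, which were apart.

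Slc40a1 rose 1.65-fold in Twist1-deleted mice (log2 change 0.72, SE 0.22, adjusted p = 0.00891) and 2.49-fold in Twist1-line controls (1.32, SE 0.23, adjusted p = 3e-05). The rises were 1.68-fold in Snai1-deleted mice (0.75, SE 0.23, adjusted p = 0.026) and 2.20-fold in Snai1-line controls (1.14, SE 0.23, adjusted p = 0.000313). The difference between deleted mice and line controls in this response was -0.59 in the Twist1 line (95% interval -1.24 to 0.05, adjusted p = 0.858) and -0.39 in the Snai1 line (-1.06 to 0.28, adjusted p = 1). The call in Twist1-deleted mice was lost without the contralateral kidney of mouse 4 (0.59, adjusted p = 0.0665), and that in Snai1-deleted mice without the obstructed kidney of mouse 12 or 13 or the contralateral kidney of mouse 11 or 13 (adjusted p = 0.0582 to 0.193), and with only the groups compared (adjusted p = 0.134). With the series matrix values the rise passed in Twist1-line controls (0.71, adjusted p = 0.0212) but not in Twist1-deleted mice (0.29, adjusted p = 0.318), Snai1-line controls (0.60, adjusted p = 0.058) or Snai1-deleted mice (0.51, adjusted p = 0.163). Of 8 macrophage markers, 6 passed as higher in Twist1-deleted mice, 5 in Twist1-line controls (median log2 change 3.37), 7 in Snai1-deleted mice and 8 in Snai1-line controls (median 2.38), and their part in the rise of Slc40a1 was not tested.

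Cp, the multicopper ferroxidase of plasma, had the largest rise of the 9 genes in every group except Twist1-deleted mice, where the change of Hp was of the same size. Obstructed kidneys of Twist1-deleted mice had 12.25, 12.49, 12.71 and 10.80, against 8.69, 8.88 and 8.99 in contralateral kidneys. Twist1-line controls had 12.31, 11.76 and 12.39 in obstructed kidneys, against 9.71, 8.22 and 8.38 in contralateral kidneys. The lowest of these obstructed kidneys, that of mouse 7, still lay above all the contralateral ones. In Snai1-deleted mice the obstructed kidneys had 10.53, 10.73 and 11.87, against 7.67, 8.45 and 7.72 in contralateral kidneys. In Snai1-line controls they had 11.81, 11.15 and 11.40, against 7.94, 7.82 and 8.40 in contralateral kidneys. Over all genotypes the obstructed kidneys (lowest 10.53, median 11.81, highest 12.71) did not overlap with the contralateral kidneys (7.67, 8.39 and 9.71) or the healthy kidneys (7.95, 8.62 and 9.10).

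Cp rose 9.25-fold in Twist1-deleted mice (log2 change 3.21, SE 0.39, adjusted p = 2.96e-07) and 10.4-fold in Twist1-line controls (3.38, SE 0.41, adjusted p = 1.94e-07). It rose 8.54-fold in Snai1-deleted mice (3.09, SE 0.41, adjusted p = 6.39e-06) and 10.6-fold in Snai1-line controls (3.40, SE 0.41, adjusted p = 4.68e-07). It passed under all alternative settings run, 19 in Twist1-deleted mice, 17 in each set of line controls and 16 in Snai1-deleted mice. The size of the rise depended on the probes: with all kept Cp probes averaged it was 2.02 in Twist1-deleted mice, 2.17 in Twist1-line controls, 1.54 in Snai1-deleted mice and 1.86 in Snai1-line controls. The next brightest Cp probe had changes of 1.65 to 2.24 and the third, detected on 14 of 37 arrays, of 1.10 to 2.90, while the dimmest, detected on 10 arrays, had changes of 0.16 to 0.44. The difference in response between deleted mice and line controls was -0.17 in the Twist1 line (95% interval -1.33 to 0.99) and -0.31 in the Snai1 line (-1.5 to 0.89).

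Hmox1, the inducible enzyme of heme breakdown, did not pass the test for obstruction in any group. Obstructed kidneys of Twist1-deleted mice had 6.11, 5.11, 4.53 and 5.15, the third not detected, against 6.01, 6.61 and 5.48 in contralateral kidneys (log2 change -0.81, 95% interval -1.77 to 0.16, adjusted p = 0.179). In Twist1-line controls the levels were 6.08, 7.15 and 5.43 in obstructed kidneys, against 4.98, 6.93 and 5.79 in contralateral kidneys (0.32, -0.71 to 1.35, adjusted p = 0.637). The groups overlapped, and of 12 mice 5 had the higher level in the obstructed kidney and 7 in the contralateral kidney. Snai1-deleted mice had 6.86, 6.99 and 6.84 in obstructed kidneys, against 7.07, 7.49 and 6.21 in contralateral kidneys (-0.03, -1.06 to 1). Snai1-line controls had 6.85, 7.64 and 6.65 in obstructed kidneys, against 7.45, 7.33 and 7.25 in contralateral kidneys (-0.30, -1.33 to 0.73).

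Hp, the hemoglobin-binding plasma protein that liver and fat tissue make, was higher in the obstructed kidney of 11 of 12 mice and passed the test in 1 of 4 groups. Twist1-deleted mice had 7.87, 10.12, 8.46 and 9.59 in obstructed kidneys, against 4.88 (not detected), 5.90 and 6.30 in contralateral kidneys. The 9.94-fold rise (log2 change 3.31, SE 0.88, adjusted p = 0.00338) passed under all 19 alternative settings, the smallest value being 2.10 with quantile normalisation and no background step. Twist1-line controls had 7.62, 7.3 and 7.02 in obstructed kidneys, against 5.85, 9.71 and 4.47 (not detected) in contralateral kidneys. There the contralateral kidney of mouse 2 was higher than every obstructed kidney of its group, and the change was 0.64 (95% interval -1.28 to 2.55, adjusted p = 0.614). Snai1-deleted mice had 6.51, 7.85 and 6.80 in obstructed kidneys, against 5.15, 5.11 and 5.07 (the last not detected) in contralateral kidneys (1.95, 0.03 to 3.86, adjusted p = 0.167), with no overlap, and with only the groups compared its adjusted p was 0.0166. Snai1-line controls had 9.28, 6.22 and 6.91 in obstructed kidneys, against 7.97, 4.72 and 4.52 in contralateral kidneys, the last 2 not detected (1.73, -0.18 to 3.65, adjusted p = 0.155).

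Hp was high on several arrays where markers of fat cells were high. The 3 measured adipocyte markers of 7 listed (Adipoq, Lep and Cidec) had their highest mean, 8.56, in the contralateral kidney of mouse 2, where Adipoq, a hormone of fat cells, was at 10.35. Obstructed kidneys of mice 5 and 7 (8.36 and 7.92, Adipoq 10.08 and 10.12), the healthy kidney of mouse 21 (6.82) and the contralateral kidney of mouse 8 (6.68) came next, and all other arrays were at 6.30 or below. Without these 5 arrays, a setting chosen after seeing the data, Hp rose by 2.47 in Twist1-deleted mice (adjusted p = 0.0026, against 3.31 with all arrays), by 2.15 in Twist1-line controls (adjusted p = 0.00666) and by 2.85 in Snai1-line controls (adjusted p = 0.00103). Leaving out only the contralateral kidney of mouse 2 gave 2.15 in Twist1-line controls (adjusted p = 0.0418), leaving out that of mouse 3 gave -0.47 (adjusted p = 0.735), and leaving out that of mouse 8 gave 2.85 in Snai1-line controls (adjusted p = 0.0243). Contralateral mice 2 and 8 had the highest Hp levels of their groups (9.71 and 7.97), so leaving them out was bound to raise the change. Obstructed mice 5 and 7 were the highest of theirs, so leaving them out was bound to lower it. In Snai1-deleted mice the adipocyte mean was 4.44 to 4.61 in obstructed kidneys, against 4.52 to 4.61 in contralateral kidneys, and there Hp did not overlap between them. At most 1 of the 3 markers was detected on any of these arrays, so these means lie near background and cannot show whether fat differed. The part of fat cells in the Hp levels was not tested. Neutrophil markers, whose cells carry Hp in granules, overlapped between obstructed and contralateral kidneys, and 2 of 4 passed as higher in Twist1-line controls and 0 in the other groups. The 2 other Hp probes had changes of -0.78 and -0.46 in Twist1-line controls and 0.60 to 2.05 in the other groups.

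**Figure D3:**
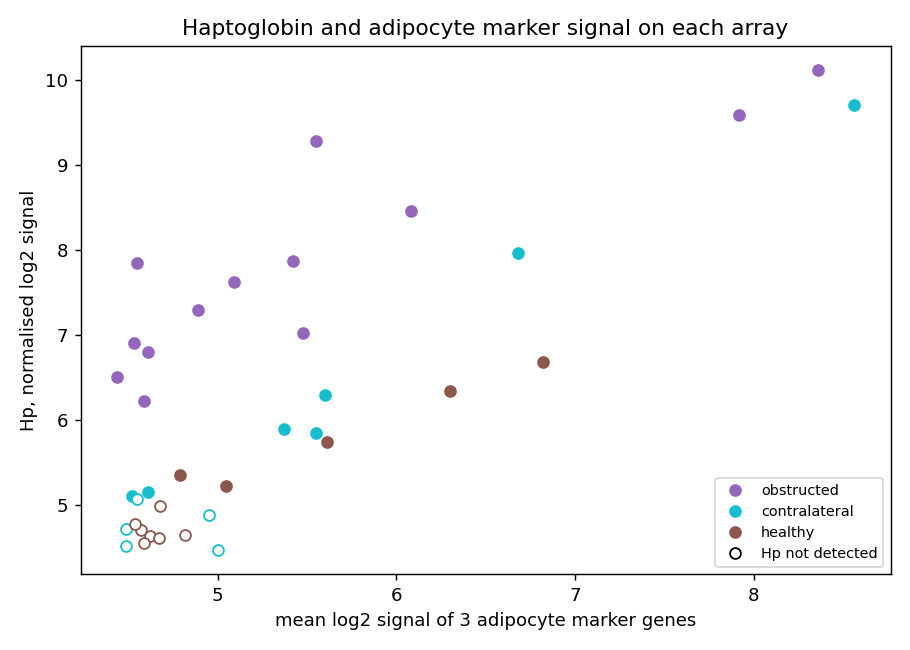
Hp level (vertical axis, normalised log2 signal) against the mean log2 signal of 3 adipocyte marker genes (horizontal axis) on each of 37 arrays, coloured by kidney type, with open points where Hp was not detected. The contralateral kidney of mouse 2 (8.56 and 9.71) lies with the obstructed kidneys of mice 5 and 7 at the upper right. At low marker levels most obstructed kidneys lie above the others, but obstructed mouse 9 (Hp 6.22) lies below contralateral mouse 7 (Hp 6.30).

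No gene of the 9 passed a test of the deletions in obstructed or contralateral kidneys, or of a difference in response to obstruction between deleted mice and line controls. Over all genes tested, 0.0311% passed for Twist1 deletion in obstructed kidneys (4 genes), 0.00777% in contralateral kidneys (1 gene), and 0% for Snai1 deletion in both kinds of kidney and for both interactions. At an unadjusted p under 0.05 in the same limma fit, 1 of 9 passed for Twist1 deletion in obstructed kidneys (11.5% of all genes) and 2 of 9 for Snai1 deletion there (11% of all genes). In contralateral kidneys the counts were 0 of 9 for both deletions (5.2% and 2.56% of all genes). For the interactions they were 1 of 9 in the Twist1 line (5.88% of all genes) and 0 of 9 in the Snai1 line (3.18% of all genes).

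The gene nearest to the threshold was Tfrc in obstructed kidneys of the Snai1 line. Its levels of 9.83, 9.19 and 9.82 in Snai1-deleted mice lay above the 8.23, 9.10 and 8.26 of Snai1-line controls, a difference of 1.09 (95% interval 0.42 to 1.75, adjusted p = 0.276). Slc11a2 there was 9.09, 9.05 and 9.41 in Snai1-deleted mice, against 8.73, 8.63 and 8.58 in Snai1-line controls (0.54, 0.08 to 0.99, adjusted p = 0.369). The proximal tubule marker mean of the same kidneys was 11.07 to 11.86 in Snai1-deleted mice and 9.86 to 10.96 in Snai1-line controls, also with no overlap, and its part in these differences was not tested. Hmox1 in obstructed kidneys was 5.22 ± 0.65 (SD, n = 4) in Twist1-deleted mice and 6.22 ± 0.87 (n = 3) in Twist1-line controls (-1, -1.96 to -0.03, adjusted p = 0.431). The difference in the Hp response, Twist1-deleted mice minus Twist1-line controls, was 2.68 (95% interval 0.05 to 5.30) and did not pass the test (adjusted p = 0.828). It was 0.31 without the 5 arrays of highest adipocyte mean (adjusted p = 0.997). Those arrays include contralateral mouse 2 and obstructed mice 5 and 7, which had the highest Hp levels of their groups. Leaving them out was thus bound to lower the difference, and the part of fat cells was not tested. The responses of the line controls of both lines differed most clearly for Fth1, by -0.40 as Twist1 line minus Snai1 line (95% interval -0.69 to -0.11, adjusted p = 0.364), and 0 of 9 genes passed (0.0389% of all genes), with 1 of 9 at an unadjusted p under 0.05 in limma (9.8% of all genes).

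Contralateral kidneys of Twist1-line controls differed from healthy wild-type kidneys without cre in 4 of the 9 genes (2 higher, 2 lower), where 17.8% of all genes passed (8.6% higher, 9.16% lower). These groups differed both in the operation and in the floxed Twist genotype, which cannot be told apart here. At an unadjusted p under 0.05 in limma, 5 of 9 passed, against 31.2% of all genes. Hmox1 was 4.98, 6.93 and 5.79 in the contralateral kidneys, against 6.93, 8.70 and 8.58 in the healthy kidneys, and was 4.50-fold lower (log2 change -2.17, SE 0.50, adjusted p = 0.00434). Ftl1 was 13.02, 12.98 and 12.95 in the contralateral kidneys, against 13.79, 13.92 and 13.75 in the healthy kidneys (-0.84, SE 0.23, adjusted p = 0.0143). Both were apart, Hmox1 by less than the rounding of its levels. Tfrc was 10.78, 10.95 and 11.27 in the contralateral kidneys, against 9.42, 10.21 and 9.44 in the healthy kidneys (1.31, SE 0.33, adjusted p = 0.00693). Slc11a2 was 9.69, 9.72 and 10.04 in the contralateral kidneys, against 9.43, 9.26 and 8.63 in the healthy kidneys (0.71, SE 0.22, adjusted p = 0.0255).

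These calls have limits in the arrays themselves. Over the alternatives the Hmox1 change was -2.74 to -1.26, the smallest with quantile normalisation and no background step, and the Ftl1 change reached -1.30 with the series matrix values. Raw median signals were 95.3 to 104.5 for the contralateral kidneys and 116.5 to 122.4 for the healthy kidneys, with no overlap, and their part in the difference was not tested. With the series matrix values the median of all genes was -0.25 and 12.6% of the calls were higher, against 48.4% with quantile normalisation, and Tfrc (0.91, adjusted p = 0.0573, or 1.16 above that median) and Slc11a2 (0.35, adjusted p = 0.282) were no longer called, while Slc40a1 was (-0.78, adjusted p = 0.0194). With only the groups compared, Hmox1 (adjusted p = 0.0644) and Slc11a2 (adjusted p = 0.0894) were not called. Ftl1 was not called without the healthy kidney of mouse 18 (adjusted p = 0.0539), nor Slc11a2 without the contralateral kidney of mouse 3 (adjusted p = 0.106) or the healthy kidney of mouse 19 (adjusted p = 0.187). The same comparison in the Snai1 line, where genetic background differs too, gave 0 of 9 called (0.459% of all genes, 59 genes) and 0 of 9 at an unadjusted p under 0.05 in limma (7.03% of all genes). There Hmox1 was 7.45, 7.33 and 7.25 in contralateral kidneys, against the same healthy levels (-0.72, 95% interval -1.76 to 0.31, adjusted p = 0.91). Both comparisons share the healthy arrays, and the difference between them was not tested.

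**Figure D4:**
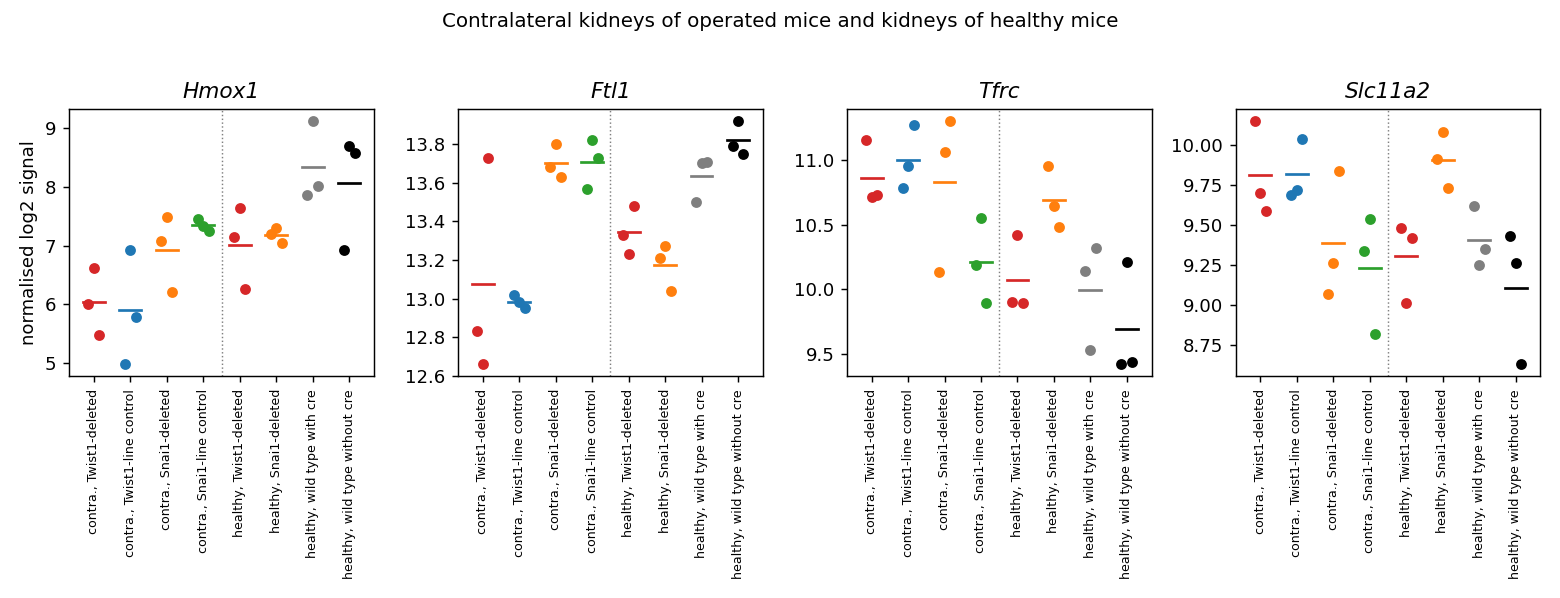
Normalised log2 signal of Hmox1, Ftl1, Tfrc and Slc11a2 in contralateral kidneys of operated mice (left of the dotted line) and in healthy kidneys (right), with a point for each array and a bar for each group mean. Twist1-line controls average 5.90 for Hmox1 and 12.98 for Ftl1, against 8.07 and 13.82 in wild type without cre.

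In healthy kidneys, cre alone and the deletions gave no call among the 9 genes. For cre in wild-type mice 0 of 9 passed, and 0 of 9 at an unadjusted p under 0.05 in limma, where 0.0155% of all genes passed the adjusted test and 2.37% the unadjusted one. For Twist1-deleted mice of 26 weeks against wild type with cre of 10 weeks 0 of 9 passed (3.4% of all genes), with 4 of 9 at an unadjusted p under 0.05 in limma (19.7% of all genes). Trf was 8.39, 8.92 and 8.58 in Twist1-deleted mice, against 6.76, 7.37 and 6.73 in wild type with cre, with no overlap (1.68, 95% interval 0.59 to 2.76, adjusted p = 0.0701). It passed with the series matrix values (1.89, adjusted p = 0.0232) and with only the groups compared in the fit (adjusted p = 0.00462). Slc40a1 was 11.68, 11.44 and 11.57 in Twist1-deleted mice, against 10.83, 10.82 and 11.07 in wild type with cre (0.66, adjusted p = 0.102), and passed with only the groups compared (adjusted p = 0.0128). Hmox1 was 7.15, 7.64 and 6.26 in Twist1-deleted mice, against 7.86, 9.12 and 8.01 in wild type with cre (-1.31, adjusted p = 0.135). Fth1 averaged 14.78 in Twist1-deleted mice, against 14.5 in wild type with cre (0.29, 95% interval 0.08 to 0.49, adjusted p = 0.099). It passed in limma with quantile normalisation and no background step (adjusted p = 0.0439). Deletion and age cannot be told apart here, and Xist was detected in 3 of 3 Twist1-deleted mice and 0 of 3 wild-type mice with cre, so a sex-linked signal differed between the groups as well.

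Snai1-deleted healthy mice of 26 weeks differed from the same wild-type mice in 0 of 9 genes (0.886% of all genes), with 4 of 9 at an unadjusted p under 0.05 in limma (10.1% of all genes). Tfrc was 10.95, 10.64 and 10.48 in Snai1-deleted mice, against 10.14, 9.53 and 10.32 in wild type with cre (0.70, 95% interval 0.03 to 1.36, adjusted p = 0.463). Slc11a2 was 9.91, 10.08 and 9.73 in Snai1-deleted mice, against 9.62, 9.25 and 9.35 in wild type with cre (0.49, 0.04 to 0.94, adjusted p = 0.421). Neither pair of groups overlapped, but neither gene passed the test. Hmox1 was 7.20, 7.3 and 7.04 in Snai1-deleted mice, below the wild-type levels given above (-1.15, adjusted p = 0.399). Fth1 averaged 14.74 in Snai1-deleted mice, against 14.5 in wild type with cre, with overlap (0.24, 95% interval 0.04 to 0.44, adjusted p = 0.356). Deletion, age and genetic background cannot be told apart in this comparison, and it shares the wild-type arrays with that of the Twist1-deleted mice.

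Other genes of iron and heme handling were counted in lists by role, with the 2 line controls as examples, and values in pairs are log2 changes in Twist1-line and then Snai1-line controls. Every gene given with such a pair passed in both, with an adjusted p of at most 0.0257 in limma. For iron uptake and transfer inside cells, 8 of 15 measured genes passed in Twist1-line controls (4 higher, 4 lower) and 8 in Snai1-line controls (5 higher, 3 lower). These shares were near the 47.2% of all genes that passed in Twist1-line controls or moderately above the 36.4% in Snai1-line controls. Lcn2, a carrier of iron-binding siderophores released by injured tubules, had the largest change (6.87 and 6.42 in Twist1- and Snai1-line controls). Steap1, of the Steap family, rose (1.90 and 1.49). So did the second transferrin receptor Tfr2, which was not detected in any contralateral kidney of the line controls (at least 1.12-fold and 1.28-fold higher). The metal importer Slc39a8 fell at least 4.14-fold in Twist1-line controls, where obstructed kidneys had no detected signal, and by 1.21 on the log2 scale in Snai1-line controls. The lysosomal channel Mcoln1 (-1.26 and -0.87) and the Lcn2 receptor Slc22a17 (-0.98 and -0.78) fell. Of 4 ferritin turnover genes, 3 fell in Twist1-line controls (20.5% of all genes were lower) and 1 in Snai1-line controls (15.3% of all genes), and the ferritin autophagy receptor Ncoa4 fell in both (-1.90 and -1).

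Hephaestin (Heph), the membrane-bound relative of Cp, rose (1.20 and 0.92). Of 9 genes of iron sensing and the hepcidin axis, 2 passed as lower and 1 as higher in Twist1-line controls. In Snai1-line controls 1 passed as lower and 0 as higher. These counts were near the shares of all genes that were lower (20.5% and 15.3%). Only Aco1, the iron regulatory protein that doubles as cytosolic aconitase, fell in both line controls (-1.65 and -1.48). In heme synthesis, 6 of 8 genes passed as lower and 0 as higher in each set of line controls (median -1.02 and -0.72, against 0.05 and 0.02 over all genes), where 20.5% and 15.3% of all genes were lower. Ferrochelatase (Fech), which inserts iron into the ring, changed by -1.44 and -1.5, Uros by -1.24 and -0.89, Cpox by -1.09 and -0.88, and the ubiquitous first enzyme Alas1 by -0.96 and -0.57. Alas2, the first enzyme in erythroid cells and also in the erythroid marker list, changed by -2.11 and -1.99. Of 13 genes of heme transport, breakdown and scavenging, 5 fell and 1 rose in Twist1-line controls and 2 fell and 3 rose in Snai1-line controls, shares near those of all genes (47.2% and 36.4% passed in either direction). The heme and folate carrier Slc46a1 (-1.81 and -1.07) and the porphyrin transporter Abcb6 (-1.25 and -1.17) fell in both, and Lrp1, the receptor for heme-hemopexin complexes, rose (0.98 and 0.61).

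In iron-sulfur cluster assembly, 8 of 11 genes passed as lower in Twist1-line controls and 7 in Snai1-line controls, with 0 higher (median -0.67 and -0.51, beside the same 20.5% and 15.3% of all genes lower). Cisd1, a cluster protein of the outer mitochondrial membrane, changed by -1.91 and -1.40, the cysteine desulfurase Nfs1 by -1.45 and -1.16, and Bola3 by -1.46 and -0.83. In deleted mice the heme synthesis list had 4 of 8 lower in each line, and the cluster list had 9 of 11 lower in Twist1-deleted and 3 of 11 in Snai1-deleted mice, with 0 higher, where 18.2% and 4.74% of all genes were lower. Proximal tubule markers, of which 2 to 8 of 8 passed as lower in the 4 groups of obstructed kidneys, moved with these lists, and their part was not tested. In Twist1-line contralateral against healthy kidneys, 4 of 11 cluster assembly genes were lower, though the median change of that list was 0.03. Among 9 sensing genes 1 was lower, and 9.16% of all genes were lower in this comparison. The difference in raw signal between these groups, given above, applies here too. Of the uptake genes 4 of 15 were higher, of the heme transport genes 3 of 13 were higher and 1 lower, and of the export genes 1 of 2 was higher, where 8.6% of all genes were higher. Of 8 heme synthesis genes and 4 ferritin turnover genes, 0 passed in either direction.

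**Figure D5:**
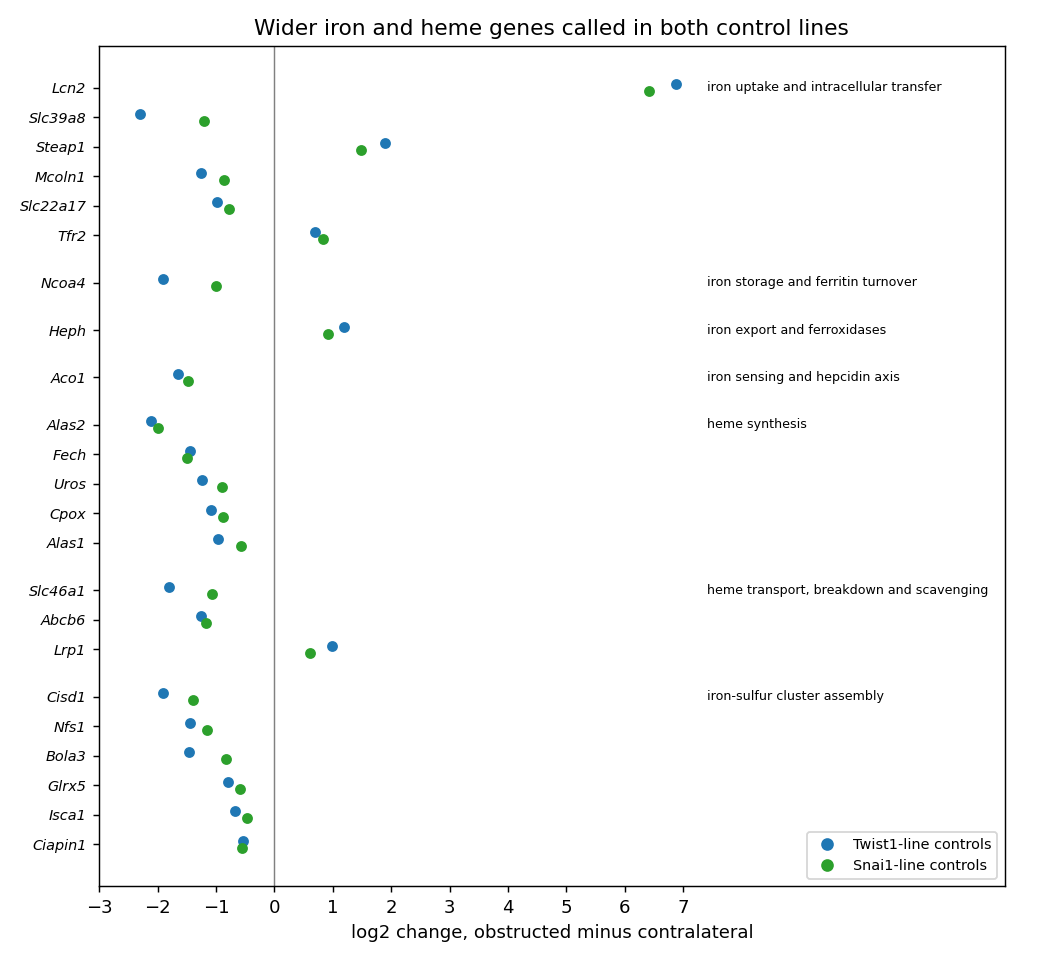
Log2 change, obstructed minus contralateral, of further iron and heme genes that passed the test in both line controls (up to 6 a list), with 1 point for each line. Lcn2 stands at 6.87 and 6.42, and all heme synthesis and iron-sulfur cluster genes shown lie below 0.

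Across all 37 arrays the members fell into patterns that were described without a test, since the arrays share obstruction and mice. Tfrc correlated with Slc11a2 at r = 0.81 and with Cp, Slc40a1 and Trf at -0.74, -0.75 and -0.72. The genes most like Cp were Agrn (r = 0.98) and Relb (0.97), those most like Slc40a1 were Mboat1 and Pdpn (both 0.93), and those most like Trf were Apoe (0.92) and Rasa3 (0.91). Tfrc was most like Susd2 and Cobll1 (both 0.90) and Slc11a2 most like Mtor (0.86) and Xpr1 (0.85). Hp was most like Plin4 (0.85), which coats fat droplets, and Aoc3 (0.82). Ftl1 was most like Kti12 and Glrx3 (both 0.92), Hmox1 most like Ing3 (0.82) and Sdf2l1 (0.81), and Fth1 most like Sptbn1 and Ubr1 (both 0.68).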

How the data were processed

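Biotin-labelled cRNA of 37 kidneys was read on Illumina bead arrays. Per the file headers, the authors' non-normalised table gives an average signal intensity and a detection p-value for each probe and array. The submitters' processing notes name GenomeStudio 5.0. The deposited series matrix, also intensities, followed the average signals of each array along a straight line (r = 1, slope 0.725 to 1.2, column medians 6.4 to 16.1). It is therefore on a linear scale, uncentred by gene, and how the authors chose the slopes stays unknown. In every genotype group of operated mice the slopes were lower for obstructed than for contralateral kidneys. They were 0.755 to 0.881 against 1.08 to 1.19 in Twist1-deleted mice, and 0.725 to 0.839 against 0.887 to 1.2 in Twist1-line controls. Snai1-deleted mice had 0.854 to 1.01 against 1.03 to 1.17, and Snai1-line controls 0.737 to 0.878 against 0.933 to 1.08.

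Intensities were background-corrected and quantile-normalised with neqc (offset 16, limma 3.58.1, R 4.3.3) onto a log2 scale. Platform annotation gave 1 symbol for 34885 of 45281 probes, several for 18 and none for 10378. Probes with a detection p under 0.05 on at least 3 arrays were kept (24544), 1 per gene by highest mean signal. A single limma model held the 12 groups and shared 1 estimate of spread, 16 two-sided comparisons were read from it, and p-values were Benjamini-Hochberg adjusted over 12866 genes at 0.05. Folds written as "at least" are bounds for genes below detection throughout a group, set against each array's lowest detected signal. The number of arrays limits the precision. The fit was checked on simulated data.

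The labels give both kidneys of 12 mice the same mouse number, and their residuals correlated at 0.174 to 0.635. Mouse was left out as a block, and adding it was an alternative, beside other normalisations, filters, probe rules, fits and single arrays left out. All 9 members are named, and of the 7 wider lists up to 6 genes that passed in both line controls, by mean size of change, with the 2 genes most like each member by correlation. The members and lists were chosen with earlier results of these data known. Columns matched to no sample numbered 0.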

Additional observations from a re-analysis of the deposited data

How the results depend on the processing

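Cp, Tfrc, Slc40a1 and Trf kept their direction with obstruction in all 4 groups under every alternative run, and Cp was called under all of them. The settings without the 5 arrays of highest adipocyte level and without mouse 7 were chosen after seeing the data. Counts of called members moved as follows. In Snai1-deleted mice 2 were called in obstruction with only the groups compared, and 1 to 4 when 1 array was left out, against 4. For Twist1 deletion in healthy kidneys 1 was called with quantile normalisation and no background step, 1 with the series matrix values and 2 with only the groups compared, against 0. For Twist1-line contralateral against healthy kidneys 2 were called with only the groups compared, against 4. Directions turned for Fth1 with the series matrix values (-0.52 in Twist1-deleted mice, -0.13 in Snai1-line controls and -0.24 in Snai1-deleted mice). The slopes of that scaling, given above, were lower in obstructed than in contralateral kidneys of every genotype group, and their part was not tested. With 1 array left out, Hp in Twist1-line controls ranged over -0.47 to 2.15 and Slc11a2 in Snai1-deleted mice over -0.37 to 0.01. The paired fits with mouse as a random or fixed replicate block called 7 members in obstruction in Snai1-line controls (Ftl1 added) and the fixed block 3 in Snai1-deleted mice (Trf lost, 1.54, adjusted p = 0.0508), and they changed no other call of a member.

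Over all genes, calls for obstruction numbered 2712 in Twist1-deleted mice with only the groups compared, against 5156, and 1162 in Snai1-deleted mice, against 1962. Without obstructed mouse 12 or 13 or contralateral mouse 13 Snai1-deleted mice had 1172 to 1250. For Twist1 deletion in obstructed kidneys 0 to 81 genes were called over all alternatives, against 4, and for the difference between line controls 0 to 54, against 5. For Twist1 deletion in healthy kidneys 1164 genes were called with the series matrix values, 2144 with only the groups compared, 88 without the 5 arrays and 67 to 147 with 1 array left out, against 438. For Snai1 deletion there 351, 421 and 46 to 74 were called with the first, second and last of these settings, against 114. For contralateral against healthy kidneys, the Twist1 line had 3470 with the series matrix values and 1411 to 1452 without mouse 18 or 19, against 2284, and the Snai1 line 22 with only the groups compared, against 59. Higher calls in obstruction made up 41% in Twist1-deleted mice, 43.5% in Twist1-line controls and 44.8% in Snai1-line controls with the series matrix values, against 54.7%, 56.5% and 57.9%, and the median of all genes was -0.14, -0.09 and -0.08. For Twist1 deletion in healthy kidneys they made up 67.2%, against 57.1%. Hp was detected on 25 of 37 arrays and lay near background on the others.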
